A study of Mus musculus with 12 samples.

Results

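Reg3g, Bpifb1, Bpifb5 and Chil1 encode secreted proteins of the antimicrobial type, usually known from mucosal surfaces, and their messenger RNA was followed through 4 sorted stromal populations of mouse bone and marrow. The members were named as a C-type lectin, a pair of BPI-fold proteins and a chitinase-like protein, and Ensembl identifiers were matched to mouse symbols. They are 4 of the 49585 genes counted and 4 of the 18648 genes that passed the filter on low values (0.5 CPM or more in 1 library or more; CPM are read counts scaled for library size). The members were chosen by their measured levels, which stood high in Itga8+ mesenchymal stem cells (MSC), so their levels there, and every comparison with that population, are given as a description without a test.

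All samples came from untreated wild-type male C57BL/6 mice aged 8 to 10 weeks, with 3 libraries per population and 2000 sorted cells per library. All sorts excluded CD45, Ter119 and CD31, which mark blood cells, the red cell lineage and endothelium. Itga8+ MSC were additionally sorted as Alcam+ and Sca-1-, and Itga8- Alcam+ bone-lining cells (BLC), which the sample labels call osteoblasts, carried the same gate except for integrin alpha 8. Sca-1+ MSC were Alcam-, and CD51+CD140a+ MSC were sorted on those surface proteins alone. The first 3 populations were released from bone fragments with collagenase after the marrow had been flushed out. CD51+CD140a+ MSC came from the flushed marrow itself with another enzyme mix, so tissue source and digestion cannot be told apart from that population. Whether same-numbered libraries shared animals was not given, and p-values measure only the spread between these libraries, which may be technical.

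Lectins of the Reg3 family are short secreted proteins that bind sugars; Reg3g binds peptidoglycan of Gram-positive bacteria and keeps bacteria away from the intestinal lining, where signals through interleukin 22, STAT3 and MyD88 induce it. BPI-fold proteins are relatives of the neutrophil protein Bpi, which binds bacterial lipopolysaccharide; Bpifb1 is a product of airway and nasal epithelium. Chil1 encodes a chitinase-like glycoprotein that binds chitin without cutting it, and is made by macrophages, chondrocytes and airway cells. In bulk libraries a low level may come from fewer positive cells or from less RNA in each, and these cannot be told apart.

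The genes lie at 3 loci (GRCm38, GENCODE M21). Reg3g (ENSMUSG00000030017) is at chr6:78466269-78468872 on the minus strand. Bpifb1 (ENSMUSG00000027485) is at chr2:154190818-154220369 and Bpifb5 (ENSMUSG00000038572) at chr2:154223742-154240902, both on the plus strand, with 3372 bases between them. Chil1 (ENSMUSG00000064246) is at chr1:134182176-134190181 on the plus strand. No exon base of the 4 genes overlaps an exon of another annotated gene, and every 50-base word of their transcripts was found in no other annotated gene (100% for each gene). Only exact matches to annotated transcripts were searched, so reads shared through mismatches or unannotated copies were not examined.

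The 250 bases before the RefSeq start are shown for Reg3g, the gene nearest to an on-off pattern, and for the neighbouring pair Bpifb1 and Bpifb5, which were both highest in Itga8+ MSC and next in Itga8- Alcam+ BLC (RefSeq, GRCm38.p6, 5′ to 3′ on the gene's strand, matched motif letters in capitals). They cover chr6:78468875-78469124 for Reg3g, chr2:154200130-154200379 for the downstream of 2 annotated Bpifb1 starts, and chr2:154223492-154223741 for Bpifb5.
Reg3g: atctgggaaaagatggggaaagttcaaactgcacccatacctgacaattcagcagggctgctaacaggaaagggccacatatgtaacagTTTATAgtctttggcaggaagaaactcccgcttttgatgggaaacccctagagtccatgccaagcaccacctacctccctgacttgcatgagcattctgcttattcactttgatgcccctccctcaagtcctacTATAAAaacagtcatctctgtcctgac
Bpifb1: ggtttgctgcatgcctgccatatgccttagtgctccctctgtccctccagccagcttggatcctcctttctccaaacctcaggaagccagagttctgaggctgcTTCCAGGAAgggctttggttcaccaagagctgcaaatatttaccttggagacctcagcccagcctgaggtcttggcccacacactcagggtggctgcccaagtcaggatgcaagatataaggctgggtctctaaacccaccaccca
Bpifb5: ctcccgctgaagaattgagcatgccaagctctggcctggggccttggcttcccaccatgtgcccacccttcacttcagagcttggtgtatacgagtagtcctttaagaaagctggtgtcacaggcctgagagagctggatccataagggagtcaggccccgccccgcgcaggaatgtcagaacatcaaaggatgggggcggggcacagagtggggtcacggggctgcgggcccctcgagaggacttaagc
Both strands were searched for the TATA box letters TATAAA, the STAT letters TTCNNNGAA, the C/EBP letters TTGCNNAA, the Scleraxis E-box letters CATCTG and an NF-kB motif; none overlapped another match. The Reg3g window held TATAAA from 27 to 22 bases before the start, and the same motif on the opposite strand from 161 to 156 bases before it. The Bpifb1 window held the STAT letters, TTCCAGGAA, 146 to 138 bases before the start. The Bpifb5 window, that of the upstream Bpifb1 start and that of Chil1 held none of the 5 motifs. Of 32851 windows of the same length, 12.4% held the first, 7.02% the STAT letters, 9.56% the C/EBP letters, 14.4% the E-box letters and 1.41% the NF-kB motif. The counts do not tell which Bpifb1 start was used.

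Libraries held 17580677 to 31332475 counts, and 3 counts, the limit that a count of 0 allows, corresponded to 0.082 to 0.18 CPM per library. Such limits and the intervals below cover counting error only. Itga8 messenger RNA was 35.2 to 199 CPM in the Itga8+ MSC libraries and 0.398 to 4.17 CPM in Itga8- Alcam+ BLC, but 53.1 to 82.9 CPM in CD51+CD140a+ MSC, which were not sorted on it. Compared by a chi-square statistic of their counts per gene, Itga8+ MSC replicate 2 stood apart (387 and 592 from replicates 1 and 3, which differed from each other by 132), and Itga8- Alcam+ BLC replicate 3 did so less (272 and 582, against 210). Alcam messenger RNA was low throughout, at 1.29 to 5.82 CPM in both Alcam+ populations and 0 to 0.221 CPM in the others.

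Reg3g was read in all 3 Itga8+ MSC libraries and almost nowhere else. Its counts in Itga8+ MSC were 322, 2668 and 749 in replicates 1, 2 and 3, or 15.9, 139 and 43.3 CPM. A single read was found in Itga8- Alcam+ BLC, in replicate 3, and none in the 3 Sca-1+ MSC or the 3 CD51+CD140a+ MSC libraries. The Itga8+ MSC mean was 65.9 ± 64.4 CPM (SD, n = 3), with an 8.7-fold distance between its highest and lowest library, the widest of the 4 genes. Every Itga8+ MSC library stood above every other library. With 3 counts per library as the floor, the mean was at least 431-fold higher than that of Sca-1+ MSC, and for CD51+CD140a+ MSC the bound was at least 747-fold. Replicate 2 carries much of these values: without it the mean was 29.8 CPM and the bounds were at least 191-fold and 341-fold. Against the single read in Itga8- Alcam+ BLC the ratio of pooled levels (summed reads over summed depth) was 3842, with a 95% counting interval from 690 to 151753. Without replicate 2 of Itga8+ MSC it was 1690 (304 to 66800), and without the bone-lining library that held the read the difference was at least 448-fold.

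Bpifb1 was high in Itga8+ MSC, present at a lower level in Itga8- Alcam+ BLC and at the edge of detection elsewhere. Counts were 11540, 14264 and 5124 in Itga8+ MSC (571, 741 and 296 CPM) and 959, 731 and 574 in Itga8- Alcam+ BLC (47.8, 33.9 and 34.4 CPM). Sca-1+ MSC held 21, 15 and 14 reads, and CD51+CD140a+ MSC 0, 0 and 5. No population overlapped the next in this order. The Itga8+ MSC mean of 536 ± 224 CPM was 13.9-fold that of Itga8- Alcam+ BLC (38.7 ± 7.86 CPM) and 623-fold that of Sca-1+ MSC (0.86 ± 0.267 CPM). Against the 5 reads of CD51+CD140a+ MSC the ratio of pooled levels was 11171, with a counting interval from 4787 to 34404; without replicate 3, which held all 5 reads, the difference was at least 6380-fold.

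Bpifb5, the next gene along the chromosome, was lower than Bpifb1 and was read in the Alcam+ populations only. It gave 680, 1285 and 297 counts in Itga8+ MSC (33.6, 66.7 and 17.2 CPM) and 25, 19 and 19 in Itga8- Alcam+ BLC (1.25, 0.881 and 1.14 CPM), and no read in the 6 libraries of the other populations. The Alcam+ populations did not overlap. The Itga8+ MSC mean of 39.2 ± 25.3 CPM was 36-fold that of Itga8- Alcam+ BLC (1.09 ± 0.188 CPM), at least 256-fold that of Sca-1+ MSC and at least 444-fold that of CD51+CD140a+ MSC. Without Itga8+ MSC replicate 2 these values were 23.7-fold, at least 164-fold and at least 293-fold.

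Chil1 was shared by both Alcam+ populations. Its counts were 15681, 25951 and 10514 in Itga8+ MSC (776, 1348 and 607 CPM) and 10053, 10450 and 9802 in Itga8- Alcam+ BLC (501, 484 and 588 CPM). It was lower in Sca-1+ MSC, with 1311, 2077 and 862 counts (72.5, 106 and 40.4 CPM), and in CD51+CD140a+ MSC, with 147, 0 and 7 counts. The lowest Itga8+ MSC library stood only 1.03-fold above the highest Itga8- Alcam+ BLC library, so these neighbours in the order were separated by less than the 2.22-fold spread within Itga8+ MSC. The Itga8+ MSC mean of 910 ± 388 CPM was 1.74-fold that of Itga8- Alcam+ BLC (524 ± 55.6 CPM) and 12.5-fold that of Sca-1+ MSC (72.9 ± 32.6 CPM). It was 644-fold that of CD51+CD140a+ MSC (1.41 ± 2.26 CPM), a value that rests on replicate 1 of that population, which held 147 of its 154 reads: the fold was 8070 without that library and 429 without replicate 2, which had none.

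**Figure D1:**
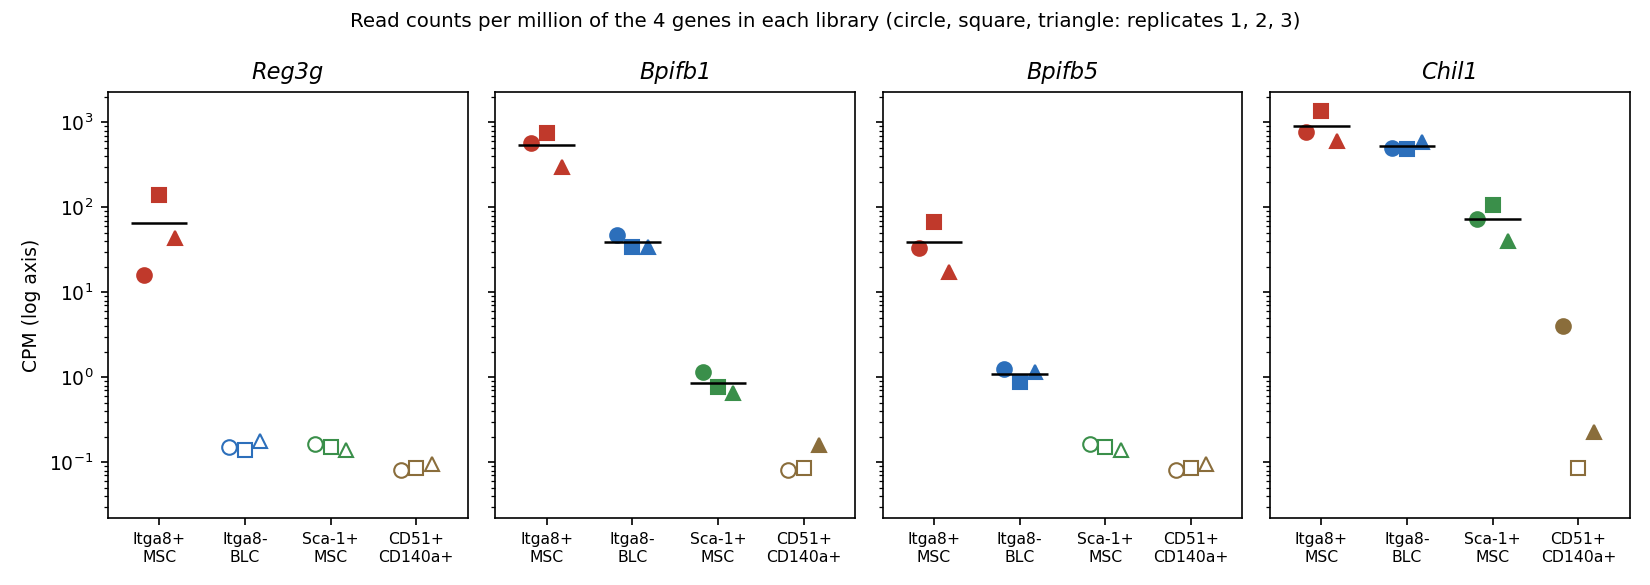
CPM (log axis) of the 4 genes in each of the 12 libraries, by population; filled symbols are libraries with more than 3 counts, open symbols are libraries with 3 counts or fewer, drawn at their 3-count limit, and bars are means of 3 libraries where every library had more than 3 counts. Reg3g is filled in Itga8+ MSC only, whereas Chil1 is high in both Alcam+ populations, with means of 910 and 524 CPM.

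All 4 genes had every Itga8+ MSC library above every library of each other population. Over all 18648 genes tested, this held for 6.73% against Itga8- Alcam+ BLC, 19.2% against Sca-1+ MSC and 22.9% against CD51+CD140a+ MSC; since the members were picked for this pattern, nothing is read from their count. Replicate 2 held the highest CPM of the Itga8+ MSC libraries for all 4 genes. Replicate 3 was the lowest for Bpifb1, Bpifb5 and Chil1, but replicate 1 was the lowest for Reg3g. In TPM, which divide each count by transcript length and scale every library to the same total, replicate 2 was the highest for Reg3g, Bpifb5 and Chil1, whereas Bpifb1 was highest in replicate 1 (607 against 509 TPM in replicate 2).

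Compared per length, the 4 messages differed widely from each other within Itga8+ MSC. Chil1 was the most abundant at 1023 ± 195 TPM, rank 120 of the 23017 genes with a read there. Bpifb1 followed at 474 ± 154 TPM (rank 294), then Reg3g at 89.4 ± 67.8 TPM (rank 1799) and Bpifb5 at 73.2 ± 31.4 TPM (rank 2151). Reg3g and Bpifb5 overlapped between libraries, with 29 to 163 and 39.2 to 101 TPM, and their order is not separated by this spread. In Itga8- Alcam+ BLC Chil1 remained within the top 1% by rank (0.991%), at 546 ± 62.8 TPM, while Bpifb1 stood at 32.2 ± 11.3 TPM and Bpifb5 at 1.96 ± 0.508 TPM.

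The proportions between the messages also changed. The TPM ratio of Bpifb1 to Bpifb5 was 7.68, 5.02 and 7.81 in the Itga8+ MSC libraries and 17.4, 17.4 and 13.7 in Itga8- Alcam+ BLC, without overlap, so Bpifb5 differed more between these populations than its neighbour did. The TPM ratio of Chil1 to Bpifb1 was 1.75 to 2.65 in Itga8+ MSC, 13.5 to 22 in Itga8- Alcam+ BLC and 79.4 to 179 in Sca-1+ MSC. The Bpifb1 to Reg3g ratio was uneven within Itga8+ MSC itself, at 20.9, 3.12 and 4 in replicates 1, 2 and 3. These ratios use the values that chose the genes and are given without a test.

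The choice of the genes did not directly use the 3 comparisons that leave out Itga8+ MSC. It was made with earlier results of these data known, so the p-values below may not be independent of it. In these comparisons Bpifb1, Bpifb5 and Chil1 could be tested (edgeR quasi-likelihood test over all 18648 genes, Benjamini-Hochberg adjustment). A call is an adjusted p under 0.1 with a fold over 2. The 3 comparisons share libraries with each other. Reg3g passed the filter only through its Itga8+ MSC reads and had at most 1 read in each of these populations, so no outcome is read from its test. Between Itga8- Alcam+ BLC and Sca-1+ MSC, the other 3 genes were called higher in the bone-lining cells, where 14.5% of all genes tested were; in 23.8% every bone-lining library stood above every Sca-1+ library. Bpifb1 was 45-fold higher (log2 fold change 5.49, SE 0.675, adjusted p = 0.000232), with all 3 libraries above. Bpifb5 was at least 7.11-fold higher, with 63 reads against none (adjusted p = 0.00261). Chil1 was 7.19-fold higher (log2 fold change 2.85, SE 1.06, adjusted p = 0.0761) and did not overlap. The Chil1 call was lost when any of 5 libraries was left out: the adjusted p was 0.139 and 0.136 without Itga8- Alcam+ BLC replicates 1 and 3, and 0.179, 0.14 and 0.214 without Sca-1+ MSC replicates 1, 2 and 3.

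Between Itga8- Alcam+ BLC and CD51+CD140a+ MSC these 3 genes were again called higher in the bone-lining cells, against 20.4% of all genes (26.3% without overlap in that direction). Bpifb1 was 796-fold higher with a counting interval from 341 to 2451 (adjusted p = 1.19e-05), Bpifb5 at least 12.3-fold (adjusted p = 0.000803), and Chil1 371-fold (adjusted p = 0.000758), each in all 3 libraries. Here too the Chil1 fold rests on CD51+CD140a+ MSC replicate 1: it was 4650 without that library and 247 without replicate 2, and the call held in both. Between Sca-1+ MSC and CD51+CD140a+ MSC, Bpifb1 and Chil1 were called higher in Sca-1+ MSC, against 11.2% of all genes (22.7% without overlap in that direction). Bpifb1 there was 50 reads against 5, a ratio of 17.4 with a counting interval from 7.44 to 53.5 (adjusted p = 0.00461), and Chil1 was 51.5-fold higher (adjusted p = 0.00635), or 646-fold without CD51+CD140a+ MSC replicate 1. Without CD51+CD140a+ MSC replicate 3, the Bpifb1 difference was at least 461-fold from Itga8- Alcam+ BLC and at least 10.2-fold from Sca-1+ MSC. Bpifb5 had no read in either of the last 2 populations. Outside Itga8+ MSC the order was therefore Itga8- Alcam+ BLC, Sca-1+ MSC and CD51+CD140a+ MSC for Bpifb1 and Chil1, while Reg3g could not be ordered at this depth.

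Most relatives of these genes had few reads or none. Among the 7 Reg genes listed, Reg2, Reg3a, Reg3b and Reg3d had no read in any of the 12 libraries, Reg1 had 1 read, and Reg4 had 15, of which 12 were in Sca-1+ MSC. Reg3b, the relative that usually accompanies Reg3g in intestine, was thus not detected at a depth that gave 3739 reads of Reg3g. Of 17 BPI-fold genes, Bpifa3, Bpifa5, Bpifa6, Bpifb9a and Bpifb9b had no read in any library. Bpifa1, the airway protein encoded on the other side of Bpifb1, gave 26 reads in Itga8+ MSC and 10 in Itga8- Alcam+ BLC, and Bpifb3 13 reads in Itga8+ MSC, each near or below 1 CPM in every library.

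Among the more widely expressed BPI-fold relatives, Lbp and Pltp were not highest in Itga8+ MSC. Lbp, which encodes the plasma protein that hands lipopolysaccharide to its receptors, was 103 ± 13.5 CPM in Itga8+ MSC, 165 ± 38.1 in Itga8- Alcam+ BLC, 367 ± 39 in Sca-1+ MSC and 341 ± 35.2 in CD51+CD140a+ MSC. It was lower in Itga8+ MSC than in Sca-1+ MSC (log2 fold change -1.83, SE 0.255, adjusted p = 0.000704) and than in CD51+CD140a+ MSC (-1.73, adjusted p = 0.00038). Pltp, a phospholipid transfer protein with the same fold, was 32.2 ± 4.22 CPM in Itga8+ MSC and 174 ± 83.6 CPM in Itga8- Alcam+ BLC (log2 fold change -2.43, SE 0.358, adjusted p = 0.00312). Bpifc was called only against CD51+CD140a+ MSC, and was 16.9 ± 5.09, 17.5 ± 7.97 and 19.5 ± 3.52 CPM in the bone-derived populations in the order above and 0.218 ± 0.31 CPM in CD51+CD140a+ MSC (adjusted p = 0.000381 for Itga8+ MSC).

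Among chitinase-like genes, Chil3 reached 1622 ± 1242 TPM in Itga8+ MSC and was less even than Chil1. It was 268 to 1979 CPM over the Itga8+ MSC libraries (mean 925 ± 922), 702 ± 97.3 CPM in Itga8- Alcam+ BLC, 163 ± 117 CPM in Sca-1+ MSC and 33.5 ± 8.84 CPM in CD51+CD140a+ MSC. Chil3 is a product of neutrophil precursors and alternatively activated macrophages. Its call against Sca-1+ MSC (log2 fold change 2.51, adjusted p = 0.0345) was lost without Itga8+ MSC replicate 2 (1.27, adjusted p = 0.157) and without Sca-1+ MSC replicates 2 or 3 (adjusted p = 0.109 and 0.112), and when only these 2 populations were fitted (0.116). Chit1, the true chitinase that neighbours Chil1, was 4.13 ± 0.912 CPM in Itga8+ MSC and 4.43 ± 1.82 CPM in Itga8- Alcam+ BLC, and 5.4 ± 1.12 CPM in Sca-1+ MSC. Chid1 and Ctbs, which are expressed in many tissues, were read in every population at means of 10.1 to 81.8 CPM.

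**Figure D2:**
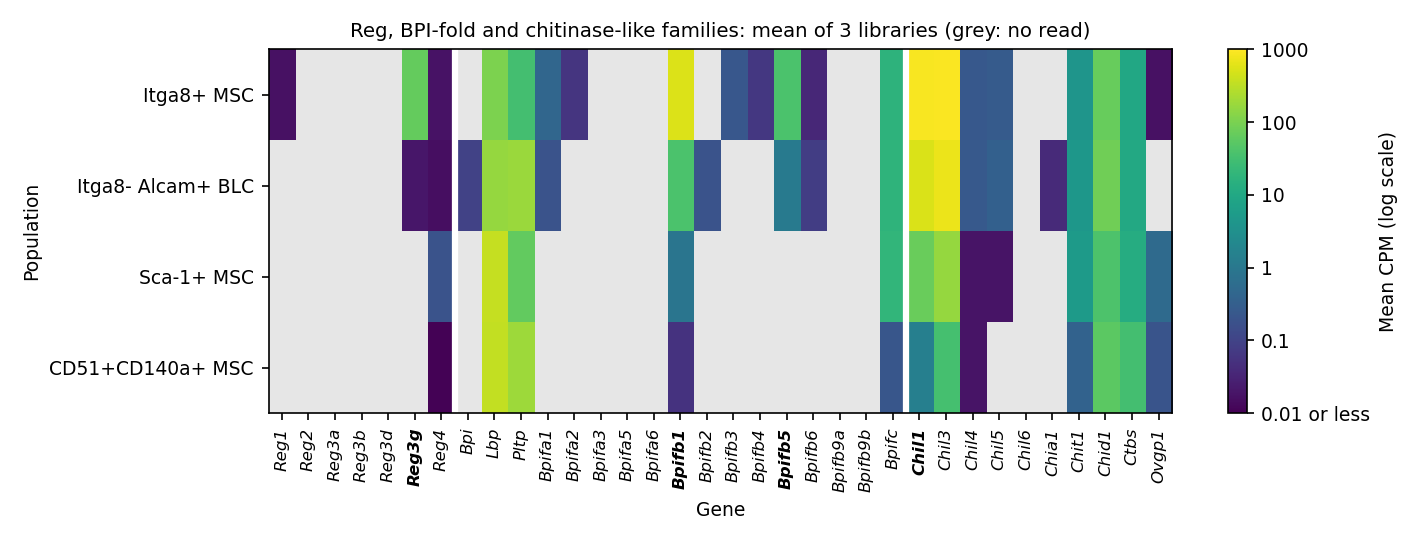
Mean CPM (colour, log scale, 3 libraries) of the Reg, BPI-fold and chitinase-like genes in each population; grey marks genes without a read and bold names the 4 genes described. Reg2, Reg3a, Reg3b, Reg3d, Bpifa3, Bpifa5, Bpifa6, Bpifb9a and Bpifb9b are grey in all 4 populations, whereas Lbp, Pltp, Chid1 and Ctbs are coloured in all 4.

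Most of the nearest protein-coding genes of Reg3g, Bpifb1 and Bpifb5 had no read. On the near side of Reg3g, Reg1, Reg2 and Reg3a gave 1 read between them; on the other side the next protein-coding gene, Gm20594, is 1349043 bases away and had no read. Of the 6 genes flanking the Bpifb1 and Bpifb5 pair, Bpifa3, Bpifa5, Bpifb9a and Bpifb9b had no read, and Cdk5rap1 stood at 5.64 to 7.36 CPM in every population mean. Bpifa1 had all its 36 reads in the Alcam+ populations, as Bpifb5 did, but they overlapped: its counts were 4, 22 and 0 in Itga8+ MSC and 0, 2 and 8 in Itga8- Alcam+ BLC (adjusted p = 0.896). It was called higher in Itga8+ MSC than in CD51+CD140a+ MSC (log2 fold change 6.39, adjusted p = 0.0703), a call lost in 6 of 18 alternatives; without Itga8+ MSC replicate 2, which held 22 of its reads, it did not pass the filter and was not tested. Near Chil1 the picture was mixed. Mybph, 3266 bases beyond it, was 6.3 ± 4.33, 4.17 ± 1.28, 0.0848 ± 0.147 and 0 CPM over the 4 populations in the order above, and Adora1, an adenosine receptor, 12.6 ± 3, 8.81 ± 4.93, 0.74 ± 0.644 and 0 CPM. Neither was called between the Alcam+ populations (adjusted p = 0.885 and 0.858), and both were called higher in Itga8+ MSC than in Sca-1+ MSC (adjusted p = 0.00448 and 0.00422). Fmod, the fibromodulin gene of tendon and cartilage matrix, was 9034 ± 3463, 4583 ± 1195, 5204 ± 1089 and 71.3 ± 13.7 CPM over the 4 populations in the same order. Of the comparisons of Itga8+ MSC, it was called only in that with CD51+CD140a+ MSC (adjusted p = 1.22e-06).

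**Figure D3:**
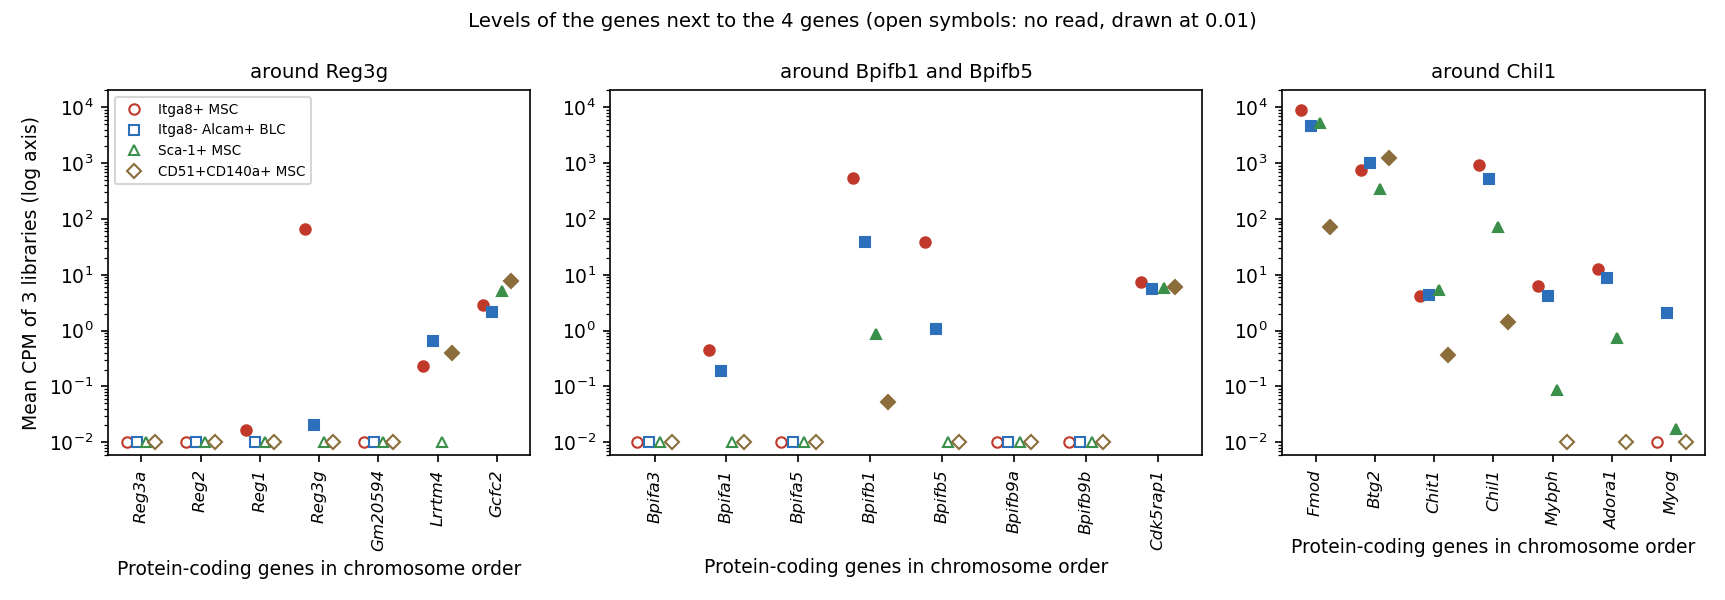
Mean CPM (log axis) of the 3 nearest protein-coding genes on each side of Reg3g, of the Bpifb1 and Bpifb5 pair and of Chil1, in chromosome order; symbols are populations and open symbols, drawn at 0.01, mark genes without a read. Most genes beside Reg3g and beside the Bpifb1 and Bpifb5 pair are open symbols, and Adora1 and Mybph fall over the populations in the same order as Chil1.

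Over the 4 lists of antimicrobial genes, 57 genes besides the members were listed and 31 were tested. Between Itga8+ MSC and Itga8- Alcam+ BLC none was called higher and 1 lower, Pltp, against 1.66% and 2.16% of all genes. At an unadjusted p under 0.05 edgeR gave 2 higher and 2 lower, and DESeq2 called 1 higher, Rnase4 (214 ± 153 against 66.3 ± 40.2 CPM; edgeR adjusted p = 0.131), and Pltp lower. The median log2 fold change of the 31 genes was 0.59, against 0.08 over all genes, and 0.46 from ratios of mean CPM with empty populations set to the 3-count floor.

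Against Sca-1+ MSC, 11 of the 31 were called higher in Itga8+ MSC and 3 lower (12.9% and 8.89% of all genes), with a median of 2.18 against 0.16 (1.55 with the floor). Of the 11, 5 also stand on the list of granulocyte and monocyte markers (Camp, Lyz2, Ngp, S100a8 and S100a9). The other 6 were Chil3, Lcn2, Pglyrp1 and Retnlg, which neutrophils also make, and Slpi and Wfdc2, protease inhibitors of mucosal secretions. The count of calls fell from 14 to 8 without Itga8+ MSC replicate 2, where the 5 marker genes, Chil3, Retnlg and Ovgp1 were no longer called while Pla2g2a and Rnase4 became called lower, to 6 without Sca-1+ MSC replicate 2 and to 9 without Sca-1+ MSC replicate 3. Slpi was 4.22 to 84.5 CPM in the Itga8+ MSC libraries and 1.73 to 3.82 CPM in Sca-1+ MSC (log2 fold change 3.76, adjusted p = 0.0179). It rests in part on replicate 2, without which the log2 fold change was 1.86 (adjusted p = 0.0667), and 1.44 (adjusted p = 0.104), no longer a call, against CD51+CD140a+ MSC. Wfdc2 was 2.47 ± 1.75 CPM in Itga8+ MSC and 2.71 ± 1.25 CPM in Itga8- Alcam+ BLC, with 2 reads in Sca-1+ MSC and none in CD51+CD140a+ MSC. The 3 lower genes were Lbp, Ptx3 and Ovgp1, the last lost in 10 of 20 alternatives. Ptx3, a soluble pattern recognition protein, was 32 ± 13.1 CPM in Itga8+ MSC and 487 ± 100 CPM in CD51+CD140a+ MSC. Its call against Sca-1+ MSC was lost in 3 of 20 alternatives, among them without Itga8+ MSC replicate 1 (log2 fold change -1.08, adjusted p = 0.129).

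Against CD51+CD140a+ MSC, 19 of the 31 were called higher in Itga8+ MSC and 4 lower (21.2% and 14.3% of all genes), with a median of 4.31 against 0.18 (3.42 with the floor). All 6 genes shared with the granulocyte list were among the 19, the 5 named above and Ltf, which encodes the iron-binding protein lactoferrin of neutrophil granules and secretions. Ltf was 605, 966 and 265 CPM in Itga8+ MSC, 749 ± 344 CPM in Itga8- Alcam+ BLC, 212 ± 132 CPM in Sca-1+ MSC and 57.2 ± 54.8 CPM in CD51+CD140a+ MSC (log2 fold change 3.42, adjusted p = 0.0119). The others were Bpifa1, Bpifc, Chil3, Chit1, Lcn2, Pglyrp1, Retnlg, Slpi, Wfdc2 and 4 genes with few reads. Of these 4, Chil5, a chitinase-like gene, had 16 reads in Itga8+ MSC and none in CD51+CD140a+ MSC (adjusted p = 0.0394), and Lyz1, the lysozyme of Paneth cells, 32 and 1 (adjusted p = 0.0342). The secreted phospholipases Pla2g2a and Pla2g2d had 56 and 8 reads against none (adjusted p = 0.00922 and 0.0882). The 8 Pla2g2d reads lay in 1 library, and replicate 2 held 14 of the 16 Chil5, 30 of the 32 Lyz1 and 50 of the 56 Pla2g2a reads. The Pla2g2d call was lost in 9 of 19 alternatives, that of Lyz1 in 3 of 18 and that of Chil5 in 1 of 18. These 18 do not include leaving out Itga8+ MSC replicate 2, without which neither gene passed the filter on low values, so neither call could be tested without the library that holds most of the reads. The 4 lower genes were Lbp, Pltp, Ptx3 and Ctbs, the last a lysosomal chitobiase at 10.1 ± 2.51 against 32.1 ± 2.85 CPM (adjusted p = 0.00773).

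Granulocyte and monocyte markers were read in every library although the sorts excluded CD45. The summed CPM of 13 such genes was 7695, 21492 and 3132 in Itga8+ MSC, 6683 to 9323 in Itga8- Alcam+ BLC, 1146 to 2829 in Sca-1+ MSC and 1145 to 1812 in CD51+CD140a+ MSC, and none of the 13 was at 0 across the libraries. Itga8+ MSC replicate 2, the library with the most Reg3g, also held the highest sum. The next highest Reg3g level, 43.3 CPM, was in Itga8+ MSC replicate 3, whose sum was the lowest of the 6 Alcam+ libraries. Itga8- Alcam+ BLC libraries with sums of 6683 to 9323 held 0, 0 and 1 Reg3g read. Leaving out Itga8+ MSC replicate 2, the log2 difference from Itga8- Alcam+ BLC was 3.51 for Bpifb1, 4.56 for Bpifb5 and 0.42 for Chil1, against 3.79, 5.17 and 0.8 with it. The Reg3g mean of Itga8+ MSC was 29.8 CPM without that library and 65.9 CPM with it. The part of these markers in the levels of the 4 genes was not tested.

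Epithelial markers, which would accompany mucosal cells, did not separate the Alcam+ populations. The summed CPM of 20 mucosal epithelium genes was 68.2 to 71.4 in Itga8+ MSC, 46.3 to 79.9 in Itga8- Alcam+ BLC, 5.54 to 6.42 in Sca-1+ MSC and 3.91 to 6.96 in CD51+CD140a+ MSC. Cldn4, Muc2, Pigr and Tff3, which mark secretory and absorptive mucosa, had no read in any library. Epcam was 16.2 ± 5.74 CPM in Itga8+ MSC and 15.6 ± 11 CPM in Itga8- Alcam+ BLC, and had no read in the 6 other libraries. Elf3, an epithelial transcription factor, was 12.7 ± 5.44 and 19.4 ± 5.3 CPM in the Alcam+ populations, and Muc1, a membrane mucin, 24.2 ± 9.83 and 16.3 ± 2.94 CPM. None of the 14 tested genes of the list was called between Itga8+ MSC and Itga8- Alcam+ BLC by edgeR or DESeq2, and none reached an unadjusted p under 0.05 in edgeR. Against Sca-1+ MSC 7 of the 14 were called higher in Itga8+ MSC and none lower, where 12.9% and 8.89% of all genes were. Epcam, Cldn3, Muc1 and Elf3 were called in all 20 alternatives, whereas Krt18 was lost in 13 of 20, Krt8 in 10 of 17 and Krt7 in 3 of 20; the count was 4 without Sca-1+ MSC replicate 2. Against CD51+CD140a+ MSC 7 were called higher and 2 lower, where 21.2% and 14.3% of all genes were. Epcam, Krt7, Cldn3, Muc1 and Elf3 were called in all 20 alternatives, whereas Krt19 was lost in 12 of 20 and Cldn7 in 7 of 20. The lower genes, Muc5ac and Grhl2, had no read in Itga8+ MSC and 41 and 44 reads in CD51+CD140a+ MSC, and were lost in 10 of 19 and 11 of 18. Both passed the filter on low values only through CD51+CD140a+ MSC libraries, so nothing is read from these calls. Grhl2 did not pass it without CD51+CD140a+ MSC replicate 1. The part of these markers in the levels of the 4 genes was not tested.

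**Figure D4:**
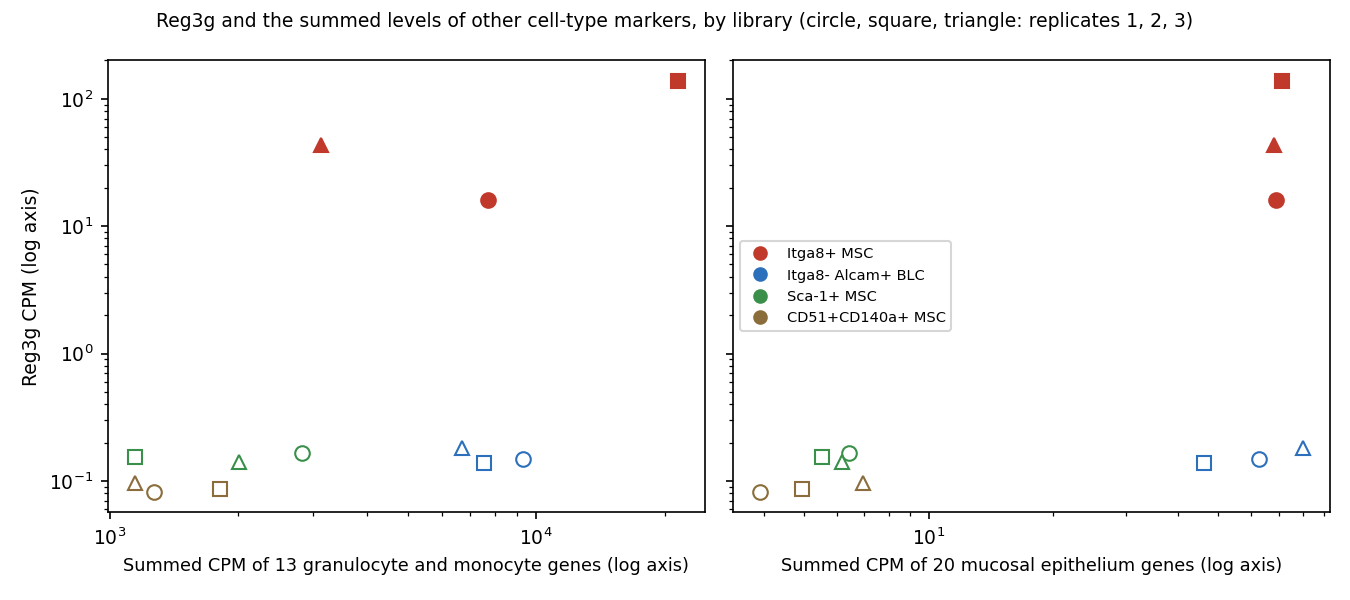
Reg3g CPM in each library against the summed CPM of 13 granulocyte and monocyte genes (left) and of 20 mucosal epithelium genes (right), all axes log; colours are populations, and open symbols, drawn at the 3-count limit, are libraries with 3 counts or fewer. At granulocyte sums of 3132 to 21492 the Itga8+ MSC libraries hold 15.9 to 139 CPM of Reg3g, while Itga8- Alcam+ BLC libraries at 6683 to 9323 hold at most 1 read.

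Chondrocytes are known to make Chil1, and cartilage genes were abundant in both Alcam+ populations. The summed CPM of 5 cartilage genes was 76117, 14588 and 120922 in Itga8+ MSC and 13785 to 74193 in Itga8- Alcam+ BLC, with none of the 5 at 0. It was 9162 to 9822 in Sca-1+ MSC and 538 to 1353 in CD51+CD140a+ MSC, so that over the populations it fell with Chil1. Within Itga8+ MSC the order was the opposite. The Itga8+ MSC library with the lowest cartilage sum, replicate 2, had the highest Chil1 level, 1348 CPM, and replicate 3, with the highest sum, had the lowest, 607 CPM; the part of cartilage cells in the Chil1 level was not tested.

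Tendon and osteoblast markers did separate the Alcam+ populations. The summed CPM of 6 tendon genes was 12896 to 23550 in Itga8+ MSC, 3788 to 6396 in Itga8- Alcam+ BLC, 6266 to 9352 in Sca-1+ MSC and 83.4 to 113 in CD51+CD140a+ MSC. Of the 6, Scx, Tnmd, Mkx, Kera and Thbs4 were called higher in Itga8+ MSC than in Itga8- Alcam+ BLC, where 1.66% of all genes were. The sum of 5 osteoblast genes ran the other way, at 664 to 7950 in Itga8+ MSC and 29786 to 112469 in Itga8- Alcam+ BLC, and all 5 were called lower, where 2.16% of all genes were; this count was 3 without Itga8- Alcam+ BLC replicate 1, without replicate 2, at an adjusted p under 0.05 and with only these populations fitted. Within Itga8+ MSC, replicate 2 held the highest CPM of all 4 genes, the middle tendon sum, 14781, and the lowest osteoblast sum. The tendon genes differed in this. In replicates 1, 2 and 3, Scx was 131, 442 and 296 CPM, Tnmd 639, 5327 and 1536 CPM, and Kera 134, 898 and 382 CPM. These were highest in replicate 2, whereas Mkx, Fmod and Thbs4 were highest in replicate 3. The part of these markers in the levels of the 4 genes was not tested.

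Genes of the pathways that induce Reg3g in mucosa were mostly present in all populations. The interleukin 22 receptor subunit Il22ra1 had no read in any library. Of the 16 tested, 1 was called higher and 1 lower in Itga8+ MSC than in Itga8- Alcam+ BLC, where 1.66% and 2.16% of all genes were. Il10rb, a receptor subunit shared by interleukins 10 and 22, was 26.8 ± 6.66 against 12.4 ± 0.81 CPM (log2 fold change 1.12, adjusted p = 0.0416); this call was lost in 5 of 20 alternatives, among them without Itga8+ MSC replicate 2 (0.92, under the fold limit), without Itga8- Alcam+ BLC replicates 1 or 2 (adjusted p = 0.119 and 0.106), and when only these 2 populations were fitted (0.388). Il10rb was 31.4 to 39.9 CPM in Sca-1+ MSC (adjusted p = 0.312 against Itga8+ MSC) and 89.5 to 101 CPM in CD51+CD140a+ MSC, and the lower call against the latter (-1.85, adjusted p = 0.000279) held in all 20 alternatives. Lifr, the receptor of leukaemia inhibitory factor, was lower at 38.5 ± 12.4 against 258 ± 18.9 CPM (-2.74, adjusted p = 0.00107). Against Sca-1+ MSC 1 was higher and 5 lower, where 12.9% and 8.89% of all genes were, and against CD51+CD140a+ MSC 1 was higher and 7 lower, where 21.2% and 14.3% were. Without Sca-1+ MSC replicate 2 none was higher than in Sca-1+ MSC and 3 were lower. The gene higher than in CD51+CD140a+ MSC was Il6ra, an interleukin 6 receptor subunit, and it rests on replicate 1: it was 30, 1.92 and 2.6 CPM in Itga8+ MSC, with a log2 fold change of 2.74 (adjusted p = 0.0646) and of 0.39 without that library (adjusted p = 0.731). Among the lower calls, that of Il6st against Sca-1+ MSC was lost in 12 of 20 alternatives and that of Socs3 against CD51+CD140a+ MSC in 14 of 20. Tlr4, the lipopolysaccharide receptor, was 3.9 ± 0.127 CPM in Itga8+ MSC, 36.9 ± 2.56 CPM in Sca-1+ MSC and 45.7 ± 14.4 CPM in CD51+CD140a+ MSC, and was lower in both comparisons (adjusted p = 0.000169 and 2.61e-05). Stat3 was 401, 117 and 576 CPM in Itga8+ MSC and 401, 534 and 237 CPM in Itga8- Alcam+ BLC, and was called in none of the 3 comparisons of Itga8+ MSC. The lowest value of each population lay in Itga8+ MSC replicate 2, the library with the most Reg3g, and in Itga8- Alcam+ BLC replicate 3. Socs3 (116 against 622 and 722 CPM in Itga8+ MSC) and Il6st (40.7 against 124 and 393 CPM) were lowest in the same libraries. Genes outside this list were lowest there too, among them Col2a1 (7596 against 60210 and 105479 CPM in Itga8+ MSC) and Itgav (12.7 against 24.4 and 118 CPM). Cebpd was instead highest in them, at 365 and 368 CPM. The low values are therefore not particular to pathway genes, and their relation to Reg3g was not tested.

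Receptors assigned to these proteins were read at modest levels. Extl3, described as a Reg receptor, was 11.7 ± 12.6, 9.13 ± 6.01, 32.7 ± 4.42 and 98 ± 11.6 CPM over the 4 populations in the order above, and was lower in Itga8+ MSC than in CD51+CD140a+ MSC (log2 fold change -3.07, adjusted p = 0.00608). Of the Chil1 receptors, Cd44 was 92.5 ± 38.2, 170 ± 48.2, 209 ± 55.8 and 27.7 ± 16 CPM, and was called higher than in CD51+CD140a+ MSC (1.74, adjusted p = 0.0132) and lower than in Sca-1+ MSC (-1.18, adjusted p = 0.0909). Tmem219 was 20.3 ± 14.8 CPM in Itga8+ MSC and 8.13 ± 1.62 CPM in CD51+CD140a+ MSC (1.32, adjusted p = 0.0735), and 0.56 without Itga8+ MSC replicate 2 (adjusted p = 0.364). Il13ra2 was below 1 CPM in every library. In all, 2 of the 5 receptor genes were higher and 1 lower against CD51+CD140a+ MSC, where 21.2% and 14.3% of all genes were, and 1 was lower against Sca-1+ MSC, where 8.89% were. The higher call of Tmem219 was lost in 7 of 20 alternatives and the lower call of Cd44 in 8 of 20. None of the 5 receptor genes was called between the Alcam+ populations by edgeR or DESeq2, or reached an unadjusted p under 0.05 in edgeR.

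Among the 10564 genes with a mean of at least 10 CPM in a population, those most like each member over the 12 libraries were found by Pearson's r of log2(CPM + 0.5). The 12 points fall into 4 populations, so r mostly reads the differences between them and is a description. For Reg3g the 5 nearest were Shisal2b (r = 0.982), Gas2 (0.978), Gm42928 (0.965), Spock3 (0.963) and Cnn3 (0.954). Shisal2b, a small membrane protein gene, was 13 to 113 CPM in Itga8+ MSC, 0.0498 to 1.2 CPM in Itga8- Alcam+ BLC and without a read elsewhere. Gm42928 and Cnn3 share exon bases (16.1% and 17.7% of theirs), so reads there cannot be assigned to one of them, and Gas2 shares 5.07% of its exon bases with Fancf.

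Shisal2b and Spock3, a testican proteoglycan gene, were also among the 5 nearest to Bpifb5 (r = 0.967 and 0.973), with Dbndd1 (0.987), the cell cycle inhibitor Cdkn2c (0.955) and Mest (0.951), which shares 23.1% of its exon bases with Copg2. For Bpifb1 they were Il18r1 (0.988), a subunit of the interleukin 18 receptor, Pla2g7 (0.981), 1700071M16Rik (0.98), R3hdml (0.979) and Cdkn2c (0.977). Pla2g7, which encodes the enzyme that inactivates platelet-activating factor, was 71.1 to 180 CPM in Itga8+ MSC, 31.4 to 42.2 in Itga8- Alcam+ BLC and 1.34 to 2.8 in the others, and shares 11% of its exon bases with 1700071M16Rik. For Chil1 they were Ifitm10 (0.986), Slc6a12 (0.978), Hbegf (0.978), Sox5 (0.973) and C1qtnf3 (0.97), of which Ifitm10 shares 4.49% of its exon bases with Gm49369 and Sox5 9.25% with Sox5os1. Hbegf, a growth factor of the EGF family, was 843, 723, 196 and 3.87 CPM on average over the 4 populations in the order above. With a pseudocount of 2, the nearest genes shared with these lists were 5 of 5 for Reg3g, 4 of 5 for Bpifb1, and 3 of 5 for both Bpifb5 and Chil1.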

How the data were processed

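RNA from sorted cells was made into cDNA with SMART-Seq v4, and Nextera XT libraries were sequenced on a NextSeq. The authors deposited raw read counts per Ensembl gene, 1 table for each of 12 libraries. Per the labels, the submitters' processing notes name FastQC 0.11.7, Trimmomatic 0.38, HISAT2 2.1.0, SAMtools 1.9, featureCounts 1.6.3 and the build mm10, whereas the study's methods name TopHat and Bowtie2; which made these tables is unsettled. The annotation release and strand setting are not given in the sources used here.

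The 18648 of 49585 genes that reached 0.5 CPM anywhere were fitted over all 12 libraries with edgeR 4.0.16 (TMM, quasi-likelihood test, Benjamini-Hochberg adjustment; R 4.3.3); a call is an adjusted p under 0.1 with a fold over 2. CPM are TMM-scaled; TPM use merged exon lengths of GENCODE M21, which held 49326 of the 49585 genes. Folds against populations without a read use a floor of 3 counts per library, and those against 1 to 5 reads are ratios of pooled reads per depth with an exact 95% Poisson interval. Populations follow the sample titles. The members and gene lists were chosen with earlier results of these data known. Named are the members, antimicrobial-list genes called against Itga8+ MSC or at 10 CPM or more in a population, the leading genes of the other lists and those at 0, the 5 most alike genes and the 3 nearest protein-coding genes on each side; list genes at low counts, Tlr4 and Il13ra2 were added after their values were seen. The promoter motifs were chosen after the counts were seen. The scripts were tested on simulated data. DESeq2 1.42.0, other scalings, filters, a replicate block and leaving out each library were tried.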

Additional observations from a re-analysis of the deposited data

How the results depend on the processing

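Of 332 alternative values for the levels and counts that answer a comparison, 322 kept their direction and their side of the limit or stayed within 1.5 times, and the other 10 are given here. Of 1627 alternative values for single genes called in the report, 193 lost the call and 2 fell to 0; 52 of the 82 gene and comparison pairs kept the call in all alternatives run. The count of other antimicrobial genes called between Itga8+ MSC and Itga8- Alcam+ BLC was 1 as reported and 2 with DESeq2, with library totals alone, with no filter beyond 1 count, and without Itga8+ MSC replicate 1 or Itga8- Alcam+ BLC replicate 3 (range 1 to 2 over left-out libraries). Against Sca-1+ MSC it was 14 as reported and 7 with the replicate block, and ran from 6 to 17 over left-out libraries, with 8 without Itga8+ MSC replicate 2, 6 without Sca-1+ MSC replicate 2 and 9 without Sca-1+ MSC replicate 3. Against CD51+CD140a+ MSC it ran from 19 to 24. The log2 difference of Chil1 between Itga8+ MSC and CD51+CD140a+ MSC was 9.32 and ran from 8.73 to 12.96, the last without CD51+CD140a+ MSC replicate 1. The number of members called between Itga8- Alcam+ BLC and Sca-1+ MSC was 3, and 2 at an adjusted p under 0.05. It ran from 2 to 3 over left-out libraries, since the Chil1 call was lost without any of 5 libraries. A pair of low-count genes had a fitted log2 difference of 0 from CD51+CD140a+ MSC without the one library that held their reads, Krt19 without Itga8+ MSC replicate 1 and Pla2g2d without Itga8+ MSC replicate 3 (ranges 0 to 5.6 and 0 to 5.45 over left-out libraries). The replicate numbers did not pair the libraries: deviations of same-numbered libraries from their population means correlated between -0.701 and 0.303 (median -0.00921), and those of differently numbered libraries between -0.422 and 0.742. Between the Alcam+ populations same-numbered r was 0.303, -0.701 and -0.619, while Itga8+ MSC replicate 2 correlated with Itga8- Alcam+ BLC replicate 3 (0.713) and replicate 3 with replicate 2 (0.742). The fits treat the libraries as independent, and no other pairing was fitted. With the replicate block, calls against Sca-1+ MSC went from 11 to 5 antimicrobial genes higher, from 7 to 4 epithelial genes higher (Krt7, Krt8 and Krt18 lost) and from 1 to 0 receptor genes lower (Cd44). Between the Alcam+ populations they went from 1 to 0 pathway genes higher (Il10rb, adjusted p = 0.131) and from 5 to 3 osteoblast genes lower. Against CD51+CD140a+ MSC they went from 1 to 0 pathway genes higher (Il6ra, adjusted p = 0.23), from 2 to 1 receptor genes higher, from 2 to 0 epithelial genes lower and from 1 to 0 osteoblast genes higher. By direction, the replicate block moved no other count for the lists of antimicrobial, pathway, receptor, epithelial, tendon and osteoblast genes past 1.5 times in the 3 comparisons of Itga8+ MSC. With it the counts of the 4 genes called in the 3 comparisons among the other populations stayed at 3, 3 and 2. Other alternatives moved some list counts further. With DESeq2, Muc5ac and Grhl2 were no longer called lower than in CD51+CD140a+ MSC (adjusted p = 0.27 and 0.272). Without Sca-1+ MSC replicate 2, Cd44 was no longer called lower than in Sca-1+ MSC. Scaling by library totals moved the all-gene median (log2) between Itga8+ MSC and Itga8- Alcam+ BLC from 0.08 to 0.34 and between Itga8- Alcam+ BLC and CD51+CD140a+ MSC from 0.09 to -0.24, under the differences given for Bpifb1 and Bpifb5. For these 4 genes depth limits the empty libraries, where up to 3 counts could be missed.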
